A study of Mus musculus with 19 samples.

Results

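The ADAM, ADAMTS, ADAMTS-like, MMP and TIMP genes encode metalloproteases that cut proteins at or outside the cell surface, relatives without protease activity, and the inhibitors of these enzymes. They were taken as every gene whose symbol in the platform annotation follows the naming of these families, from probe sets that list a single gene, and a gene with several such probe sets was represented by the brightest. This gave 82 of the 22180 genes measured: 33 ADAM, 18 ADAMTS, 5 ADAMTS-like, 22 MMP and 4 TIMP genes. Transcript levels had been measured in 19 isolated mouse hearts on Affymetrix whole-transcript arrays. The hearts came from wild-type mice of strain C57Bl6J at ZT0 (n = 7), wild-type mice of that strain at ZT12 (n = 7) and Reverb alpha KO mice at ZT12 (n = 5), for which no strain is given here. ZT, zeitgeber time, counts hours from lights on. Every heart, in all groups, was perfused outside the body on a Langendorff apparatus, stabilised for 20 min, deprived of flow for 20 min, reperfused for 20 min and then frozen. All groups had thus been through ischemia and reperfusion, and the comparisons are between times of day and genotypes after it. Neither the age of the mice nor the construction of the knockout allele is recorded in the labels.

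Many ADAMs, though not all, are membrane-anchored proteases that release the outer parts of growth factors, cytokine receptors and adhesion proteins. ADAMTS enzymes are secreted and cut proteoglycans, procollagens and other matrix proteins, whereas ADAMTS-like proteins resemble their non-catalytic part and bind fibrillin microfibrils. MMPs degrade collagens, gelatin, laminins and many other proteins and are known from the remodelling of the heart after infarction, and TIMPs bind and block MMPs and, in the case of TIMP3, several ADAM and ADAMTS enzymes as well. REV-ERB alpha, the product of Nr1d1, is a nuclear receptor of the circadian clock that represses transcription, with Arntl among its best known targets.

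The values are log2 summaries of probe set brightness made by RMA, so a difference of 1 is a doubling. A level was called above background when the mean over the 19 hearts exceeded 3.20, the 95th percentile of the means of olfactory receptor genes. By this measure 45 of the 82 genes were above background and 37 were not. All 4 TIMP genes passed, as did 15 of the 18 ADAMTS, 4 of the 5 ADAMTS-like, 12 of the 22 MMP and 10 of the 33 ADAM genes. Of the 20 measured ADAMs that are known chiefly from testis and epididymis, 1 was above background, against 9 of the 12 ADAMs of somatic tissues. Among the MMPs the gelatinase genes Mmp2 and Mmp9 were both above background, as were 4 of the 5 membrane-type MMP genes and 3 of the 9 collagenases and stromelysins. Spread between hearts of a group was somewhat wider for the family genes above background, with a median SD of 0.18 at ZT0, 0.19 in wild types at ZT12 and 0.21 in knockouts, than for all genes above background, at 0.15 in each group.

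Groups were compared with limma over all 22180 genes, and a gene was called when its adjusted p was under 0.05. The labels were first checked on clock genes. Arntl lay at 7.18 to 7.36 in wild types at ZT0, 3.72 to 4.31 in wild types at ZT12 and 6.28 to 6.77 in knockouts at ZT12. Dbp, a clock output gene, was 2.52 log2 units higher in wild types at ZT12 than at ZT0, with the 7 hearts of each group apart. Nr1d1 itself lay at 6.30 to 6.51 in knockouts, against 6.46 to 7.28 in wild types at ZT12 and 5.76 to 6.67 at ZT0. The knockout did not pass against wild types at ZT12 for Nr1d1 (log2 difference -0.35, adjusted p = 0.374). Whether that probe set lies in the deleted part of the gene is not known here, so its level checks nothing.

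The tissue makeup of the hearts varied. The 8 ventricular muscle markers were steady, with a list mean of 11.15 to 11.28 in all hearts. The 8 atrial markers were not, since their list mean ran from 7.60 to 8.98 at ZT0, 5.46 to 8.75 in wild types at ZT12 and 4.996 to 8.76 in knockouts. All 8 were lower in each comparison toward ZT12 or knockout, and none passed the test. Median log2 differences were -0.67 for wild types at ZT12 minus ZT0, -0.89 for knockouts minus wild types at ZT12 and -1.52 for knockouts minus ZT0. Unadjusted p was under 0.05 for 1, 0 and 8 of the 8 in that order, beside 11.5%, 10.6% and 12.6% of all genes. Bmp10, 1 of the 8, had medians of 9.95 at ZT0, 3.70 in wild types at ZT12 and 3.47 in knockouts. The other cell type markers included fibroblast, smooth muscle, endothelial, macrophage, adipocyte, mesothelial and valve genes, and the calls among them were Kdr and Lrrn4. The endothelial gene Kdr gave -0.52 in wild types at ZT12 minus ZT0 (adjusted p = 0.00160), beside 0.482% of all genes called lower. The mesothelial gene Lrrn4 gave -0.53 in knockouts minus wild types at ZT12 (adjusted p = 0.0359), beside 0.289% called lower. Lrrn4 was not above background, with a mean of 3.16 over all hearts, so its difference is poorly measured. Of the 6 mesothelial markers, 4 were lower and 2 higher in knockouts than in wild types at ZT12. The 8 smooth muscle markers were all lower in wild types at ZT12 than at ZT0, with a median of -0.14, and none passed. Of the 8 macrophage markers, 7 were lower in knockouts in each comparison with a wild-type group, with medians of -0.24 against ZT12 and -0.34 against ZT0, and none passed. At an unadjusted p under 0.05 there were 1 and 6 of the 8, beside 10.6% and 12.6% of all genes in these 2 comparisons. The macrophage list mean was 5.40 to 6.27 in knockouts, 5.97 to 6.44 in wild types at ZT12 and 6.08 to 6.39 at ZT0. All 6 mesothelial markers were lower in knockouts than at ZT0, with a median of -0.32, and none passed in that comparison. Atrial list means below 6 were seen in 4 hearts, namely WT ZT12 replicate 5 and KO ZT12 replicates 2, 4 and 5. The part of atrial tissue in the results below was not tested beyond the values given with this list mean, or with the atrial gene Bmp10, as a covariate and those without the 4 hearts. In whole hearts, fewer cells of a type and less RNA per cell cannot be told apart.

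Between the times of day, 4 of the 82 family genes passed the test, 2 inhibitors upward and 2 proteases downward. The background over all genes was 1.13% called, 0.645% higher and 0.482% lower at ZT12. Timp4 and Timp3 rose from ZT0 to ZT12, 1.82-fold and 1.45-fold, and Adam19 and Mmp14 fell 1.95-fold and 1.53-fold. In all 4 genes the 7 hearts at ZT12 lay apart from the 7 at ZT0, which held for 0.902% of all genes. The other 78 genes did not pass, and 73 of these differed by less than 0.25 log2 units. Over all 82 the median difference was near zero, at -0.0017, beside -0.0035 over all genes. The plot of differences by family shows these 4 genes standing away from the rest of their families.

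**Figure D1:**
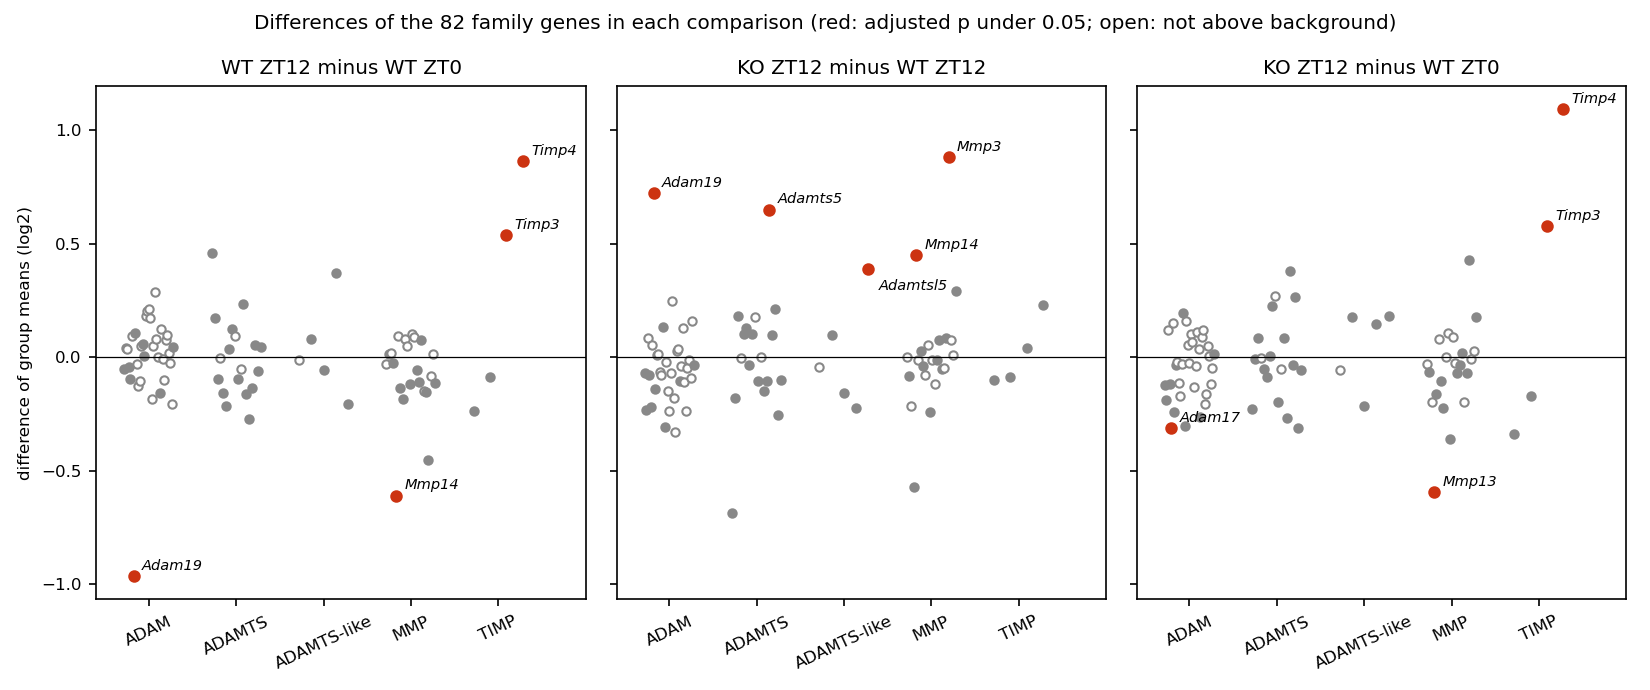
Difference of group means on the log2 scale (vertical axis) for each of the 82 genes, grouped by family along the horizontal axis, in the 3 comparisons. Red points have an adjusted p under 0.05 and are named, grey points do not, and open points are genes not above background. Called genes are Adam19, Mmp14, Timp3 and Timp4 on the left, 5 genes, all higher in knockouts, in the middle, and Timp3, Timp4, Adam17 and Mmp13 on the right.

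Timp4, the TIMP best known for its strong expression in the heart, lay at 5.53 to 6.03 with a median of 5.81 in the wild-type hearts at ZT0. Its levels at ZT12 ran from 6.32 to 6.92 with a median of 6.68 in wild types, and were 6.93, 6.37, 7.36, 6.74 and 6.85 in knockouts. Every heart collected at ZT12, of either genotype, was thus above every heart at ZT0. The wild types differed by 0.86 ± 0.12 log2 units (SE, n = 7 and 7, adjusted p = 0.000337). Knockouts differed from wild types at ZT0 by 1.09 ± 0.14 (n = 5 and 7, adjusted p = 6.45e-05), a 2.13-fold higher level. Between knockouts and wild types at ZT12 the groups overlapped, and the difference of 0.23 did not pass (95% interval -0.05 to 0.51, adjusted p = 0.582).

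Timp3, which encodes the inhibitor that stays bound to the matrix, followed the same order. It lay at 7.90 to 8.26 with a median of 8.17 at ZT0 and at 8.54 to 8.84 with a median of 8.66 in wild types at ZT12. Levels in the knockout hearts were 9.12, 8.34, 8.83, 8.50 and 8.76. Here too all hearts at ZT12 exceeded all those at ZT0, the closest being KO ZT12 replicate 2. Timp3 differed by 0.54 ± 0.10 between the wild types (adjusted p = 0.00525) and by 0.58 ± 0.11 between knockouts and wild types at ZT0 (adjusted p = 0.00599). For knockouts minus wild types at ZT12 it gave 0.04 (95% interval -0.18 to 0.27). These 3 comparisons share hearts, so they are not independent of each other. For Timp3 and Timp4 both ZT0 comparisons passed in all 13 other settings tried and in all 19 fits that left out 1 heart.

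Timp1, the inhibitor gene that cytokines induce in many tissues, and Timp2, which takes part in the activation of MMP2 at the cell surface, passed in no comparison. Timp1 ranged over 3.69 to 4.23 at ZT0, 2.92 to 4.14 in wild types at ZT12 and 3.24 to 4.14 in knockouts, so the groups overlapped throughout. Timp2 ranged over 7.41 to 7.88, 7.25 to 7.89 and 7.02 to 7.95. Their differences were negative in all 3 comparisons, from -0.34 for Timp1 in knockouts minus ZT0 to -0.09 for Timp2 between the wild types, but turned positive in the comparisons with knockouts when Bmp10 or the atrial list mean was a covariate. Timp3 and Timp4 each lie within a synapsin gene, Syn3 and Syn2, in the RefSeq annotation of GRCm38.p6. The host genes passed in no comparison, with Syn3 differing by 0.06 and Syn2 by 0.09 between the wild types (adjusted p = 0.896 and 0.840).

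Adam19 encodes a membrane protease that sheds neuregulins and is needed for the formation of heart valves and septa. Its wild-type levels were 5.69 to 6.10 with a median of 5.82 at ZT0 and 4.64 to 5.11 with a median of 4.99 at ZT12. The knockout hearts at ZT12 read 5.87, 5.97, 5.16, 5.33 and 5.83. Knockout replicates 1, 2 and 5 were thus at the level of the ZT0 hearts, replicates 3 and 4 lay between, and all 5 were above every wild-type heart at ZT12. The wild types differed by -0.96 ± 0.11 (n = 7 and 7, adjusted p = 3.80e-05), and knockouts differed from wild types at ZT12 by 0.72 ± 0.13 (n = 5 and 7, adjusted p = 0.00610), a 1.65-fold higher level. Between knockouts and wild types at ZT0 the difference of -0.24 did not pass (95% interval -0.50 to 0.02, adjusted p = 0.453). Both passing comparisons use the same 7 wild-type hearts at ZT12. Another probe set of Adam19 was dim, with a mean of 2.22, and gave -0.24, 0.32 and 0.09 in the order of these comparisons. Atrial list means of knockout replicates 1 to 5 were 8.76, 5.18, 8.003, 5.51 and 4.996. Their Bmp10 values were 9.01, 3.20, 4.15, 2.66 and 3.47. The part of atrial tissue in the spread of Adam19 among knockouts was not tested.

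The start of Adam19 is shown because it holds letters that clock factors are known to bind. Promoter sequences, taken as the 250 bases before a transcript start, came from RefSeq annotation of GRCm38.p6, and 51 of the 82 genes were matched in that table. On both strands, 4 motifs were searched: CACGTG (the E-box bound by ARNTL and CLOCK), TTANNTAA (a D-box type), AGGTCA (the half-site bound by REV-ERB and ROR receptors) and TGANTCA (AP-1). Of the 3 Adam19 windows, that at chr11:46054252-46054501, plus strand, holds an E-box 130 to 125 bases before the start and an AGGTCA half-site on the minus strand 141 to 136 bases before it. In the sequence, capitals mark both, the half-site reading as its complement:
Adam19, upstream window 1: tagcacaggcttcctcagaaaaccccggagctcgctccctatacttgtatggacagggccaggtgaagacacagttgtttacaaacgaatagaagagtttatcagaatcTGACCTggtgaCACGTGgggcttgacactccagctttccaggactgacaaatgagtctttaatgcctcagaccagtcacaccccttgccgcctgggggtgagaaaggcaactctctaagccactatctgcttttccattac
A second Adam19 window holds a TGANTCA match, and the remaining window holds no match to the 4 motifs. The E-box was present in 6.86% of all genes with promoters and in 5 of the 51 matched family genes (9.8%), and AGGTCA in 15.8% and in 8 (15.7%). TTANNTAA was in 6.3% of all genes and in 7 (13.7%) of the matched family genes. A match describes letters only, and binding was not measured.

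Mmp14 encodes a collagenase anchored in the membrane that activates the proform of MMP2. It lay at 5.87 to 6.38 with a median of 6.09 at ZT0 and at 5.15 to 5.72 with a median of 5.52 in wild types at ZT12. Knockout values were 6.04, 6.13, 5.90, 5.84 and 5.92, all above the highest wild-type heart at ZT12 and within the range of ZT0 apart from replicate 4, which was just below it. The wild types differed by -0.61 ± 0.09 (adjusted p = 0.000818), which passed in all 13 settings and 19 leave-one-out fits, as the difference for Adam19 did. Knockouts differed from wild types at ZT12 by 0.45 ± 0.10 (adjusted p = 0.0449), and from ZT0 by -0.16 (adjusted p = 0.578). The call between genotypes lay at the threshold. It was lost with arrays centred on their medians (0.0569), with only the arrays compared (0.0766), with the smooth muscle list mean as a covariate (0.0695), and without any 1 of WT ZT0 replicates 2, 3 or 4, WT ZT12 replicates 1 to 5 or any knockout replicate (0.0541 to 0.125). The difference itself stayed between 0.39 and 0.53 in all these fits. No match to the 4 motifs was found in the Mmp14 window, nor in those of Timp3, Timp4, Adam17 and Adamts1. Adamts5 had no window among the promoter sequences and was not searched.

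**Figure D2:**
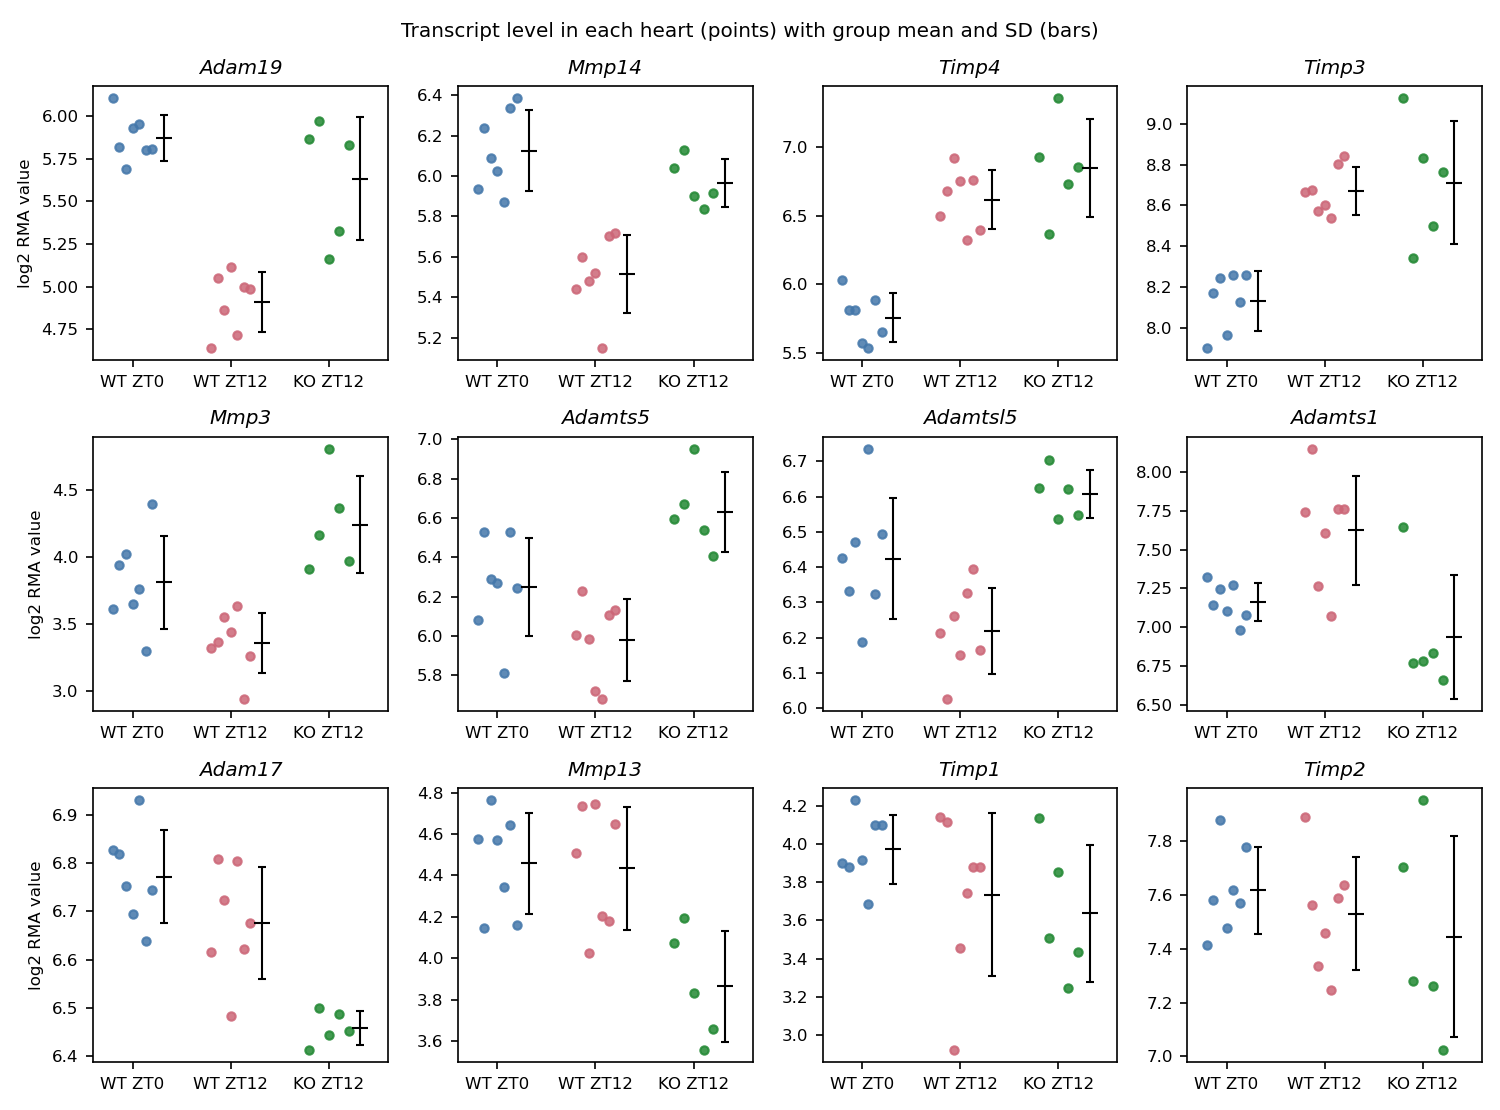
Log2 RMA values (vertical axis, a separate scale for each gene) of 12 family genes in each heart, by group along the horizontal axis, with the group mean and SD as bars (n = 7, 7 and 5). Adam19 and Mmp14 are low in wild types at ZT12 only among the 3 groups, Timp3 and Timp4 are high in both ZT12 groups, and in Adamts1 a single knockout heart stands at 7.64 above the other 4.

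Between genotypes at ZT12, 5 family genes passed, all higher in knockouts, and 0 were lower. The background over all genes was 0.73% called, 0.442% higher and 0.289% lower. Mmp3 was 1.84-fold, Adam19 1.65-fold, Adamts5 1.57-fold, Mmp14 1.36-fold and Adamtsl5 1.31-fold higher. In each of these the 5 knockout hearts lay above the 7 wild-type hearts at ZT12, an arrangement seen in 0.969% of all genes, or 1.4% with both directions counted. At an unadjusted p under 0.05 there were 15 of 82 genes (18.3%, beside 10.6% of all genes), and among those 15 the 10 that were not called were all lower in knockouts. Of the 15, 11 were above background. Adam3, Adam5, Adam26a and Mmp12 were not, and all of these were among the 10 lower genes. The share of lower genes among all genes at this unadjusted p was not counted. Over all 82 the median was -0.03, beside -0.0030 over all genes, and 70 of the 77 genes not called differed by less than 0.25. Without the 4 hearts low in atrial markers, which leaves 2 knockouts, limma called 0 of the 82 genes and 19 of all genes, and the 5 differences were 0.57 for Adam19, 0.74 for Adamts5, 0.38 for Adamtsl5, 0.39 for Mmp14 and 1.04 for Mmp3 (adjusted p 0.131 to 0.381).

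Mmp3, stromelysin 1, cuts proteoglycans, laminin and fibronectin and activates other MMPs. It lay at 2.94 to 3.63 with a median of 3.37 in wild types at ZT12, near the background level, and at 3.3025 to 4.39 with a median of 3.76 at ZT0. The knockout hearts read 3.91, 4.17, 4.80, 4.37 and 3.97. All were above the wild types at ZT12, and they overlapped the ZT0 hearts, of which replicate 7 was the highest at 4.39. Knockouts differed from wild types at ZT12 by 0.88 ± 0.17 (adjusted p = 0.0122). The wild types differed by -0.45 (adjusted p = 0.199), and knockouts from ZT0 by 0.43 (adjusted p = 0.259), neither of which passed. Its chromosomal neighbours Mmp1b and Mmp1a, collagenase genes that were not above background, differed by 0.06 and -0.08 between genotypes at ZT12.

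Adamts5 and Adamts1 are neighbours in the same annotation and encode proteases that cut aggrecan and versican. Adamts5 lay at 5.68 to 6.23 with a median of 6.01 in wild types at ZT12, 5.81 to 6.53 with a median of 6.27 at ZT0, and at 6.60, 6.67, 6.95, 6.54 and 6.41 in knockouts. The knockouts were above all wild types at ZT12 and overlapped the upper ZT0 hearts. They differed from wild types at ZT12 by 0.65 ± 0.12 (adjusted p = 0.0128) and from ZT0 by 0.38 (adjusted p = 0.157). Adamts1 lay the other way, at 7.08 to 8.15 with a median of 7.74 in wild types at ZT12 and at 7.64, 6.77, 6.78, 6.84 and 6.66 in knockouts. At ZT0 it lay at 6.98 to 7.32. Knockout replicates 2 to 5 were below every wild-type heart, whereas replicate 1 stood at the level of the wild types at ZT12. Its difference of -0.69 ± 0.16 did not pass (adjusted p = 0.0508). It passed without KO ZT12 replicate 1 (log2 difference -0.86, adjusted p = 0.00573), without WT ZT12 replicate 3 (0.0427) or replicate 5 (0.0174), and in 5 of the 13 other settings, with adjusted p from 0.00941 to 0.501 over the 13. KO ZT12 replicate 1 also had the highest atrial list mean (8.76), Bmp10 value (9.01) and smooth muscle list mean (6.77) of the 5 knockouts, as well as their highest mesothelial (4.34) and valve (4.96) list means. Its adipocyte list mean of 6.37 was the highest of all 19 hearts, beside 3.86 to 5.13 in the other 4 knockouts. The part of these tissues in its Adamts1 level was not tested. Between the wild types Adamts1 differed by 0.46 (adjusted p = 0.175), which passed with the atrial list mean (0.64, adjusted p = 0.00374), the smooth muscle list mean (0.68, 0.0423) or Bmp10 (0.63, 0.0279) as a covariate.

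Adamtsl5 encodes a secreted protein without protease activity that binds fibrillin-1. It lay at 6.03 to 6.39 with a median of 6.21 in wild types at ZT12, at 6.19 to 6.73 with a median of 6.42 at ZT0, and at 6.62, 6.70, 6.54, 6.62 and 6.55 in knockouts. The knockouts formed the tightest of the 3 groups, with an SD of 0.07, inside the ZT0 range. They differed from wild types at ZT12 by 0.39 ± 0.08 (adjusted p = 0.0302) and from ZT0 by 0.18 (adjusted p = 0.360), and the wild types differed by -0.20 (adjusted p = 0.276). The difference between genotypes stayed between 0.35 and 0.42 in all 13 settings and 19 leave-one-out fits. The call held in 8 of these 13 settings. It was lost with the atrial list mean (log2 difference 0.36, adjusted p = 0.0804), the smooth muscle list mean (0.36, 0.0538) or Bmp10 (0.37, 0.0622) as a covariate. With the replicate number as a block or without the 4 hearts low in atrial markers it was lost too (adjusted p up to 0.359). So it was without any 1 of WT ZT12 replicates 2, 4 or 7 or KO ZT12 replicates 1, 2, 4 or 5 (0.0538 to 0.0832). Of the other ADAMTS-like genes, Adamtsl4, whose product also binds fibrillin-1, came closest between the wild types. It lay at 5.61 to 6.15 at ZT0 and 5.80 to 6.39 at ZT12, and its difference of 0.37 ± 0.09 did not pass (adjusted p = 0.0576). It passed in 5 of the 13 other settings and when either WT ZT0 replicate 7 (0.0170) or WT ZT12 replicate 5 (0.0128) was left out. Adamtsl3 differed by -0.16 between genotypes at ZT12 (adjusted p = 0.543).

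The promoters of Adamtsl5 and Mmp3 are given because both genes passed between genotypes and each holds a searched motif. Adamtsl5, at chr10:80348449-80348698 on the minus strand, has AGGTCA at 202 to 197 and again at 137 to 132 bases before the start. Mmp3, at chr9:7445572-7445821 on the plus strand, has TGANTCA at 46 to 40 bases before it. Mmp13, on the same chromosome at chr9:7272264-7272513, plus strand, has TGANTCA at 35 to 29 bases before its start, and is set beside Mmp3 because their differences between genotypes had opposite signs. Capitals mark the matches:
Adamtsl5, upstream window: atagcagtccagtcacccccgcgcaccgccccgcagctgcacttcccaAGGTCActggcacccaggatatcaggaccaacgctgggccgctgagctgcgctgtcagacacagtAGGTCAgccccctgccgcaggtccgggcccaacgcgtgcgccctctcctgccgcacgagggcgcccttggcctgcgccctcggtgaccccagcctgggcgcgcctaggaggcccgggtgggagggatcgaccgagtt
Mmp3, upstream window: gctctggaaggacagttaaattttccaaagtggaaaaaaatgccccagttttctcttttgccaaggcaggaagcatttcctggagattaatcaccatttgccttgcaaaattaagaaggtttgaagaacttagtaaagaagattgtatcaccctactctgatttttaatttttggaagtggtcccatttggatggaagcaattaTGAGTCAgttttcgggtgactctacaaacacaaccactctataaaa
Mmp13, upstream window: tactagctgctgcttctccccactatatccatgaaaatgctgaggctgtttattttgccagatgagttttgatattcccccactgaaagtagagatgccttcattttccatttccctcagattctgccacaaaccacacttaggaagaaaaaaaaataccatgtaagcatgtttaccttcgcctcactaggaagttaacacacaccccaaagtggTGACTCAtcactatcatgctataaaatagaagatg
TGANTCA was present in 7.82% of all genes with promoters and in 12 of the 51 matched family genes (23.5%). AP-1 factors such as FOS and JUN are immediate early products, and the mean of 10 immediate early genes lay at 7.74 to 8.46 at ZT0, 7.43 to 8.64 in wild types at ZT12 and 7.27 to 8.52 in knockouts. With that mean as a covariate, the family genes called were 5, 5 and 4 in the 3 comparisons, beside 276, 186 and 351 of all 22180 genes. These transcript levels do not measure AP-1 at the promoters, and the part of AP-1 in the calls was not tested.

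Against wild types at ZT0, knockouts at ZT12 differ in both genotype and time. Here 4 family genes passed, Timp3 and Timp4 upward as given above and Adam17 and Mmp13 downward, beside a background of 1.34% called, 0.965% higher and 0.379% lower. Adam17, the protease that releases tumour necrosis factor and EGF-type ligands, lay at 6.64 to 6.93 with a median of 6.75 at ZT0, 6.48 to 6.81 in wild types at ZT12, and 6.41, 6.50, 6.44, 6.49 and 6.45 in knockouts. The knockouts lay below all ZT0 hearts and at the lower end of the wild types at ZT12. Their difference from ZT0 was -0.31 ± 0.07 (adjusted p = 0.0197), and from wild types at ZT12 -0.22 (adjusted p = 0.181). Groups were apart for Adam17, Timp3 and Timp4, as for 1.72% of all genes (1.19% higher). The Adam17 difference from ZT0 stayed between -0.35 and -0.29 in all 13 settings and 19 leave-one-out fits. Its adjusted p rose above the threshold in 4 of them, with atrial markers held constant by their list mean (log2 difference -0.35, adjusted p = 0.0619) or by Bmp10 (-0.32, 0.117), without the 4 hearts low in atrial markers (-0.34, 0.187) and without KO ZT12 replicate 1 (-0.30, 0.0520).

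Mmp13, collagenase 3, is the main interstitial collagenase of rodents. It lay at 4.15 to 4.76 with a median of 4.57 at ZT0 and 4.02 to 4.74 with a median of 4.51 in wild types at ZT12. Knockout levels were 4.07, 4.20, 3.83, 3.56 and 3.66. Replicate 2, the highest knockout heart, lay within the range of both wild-type groups, and replicate 1 within that of the wild types at ZT12, while the other 3 lay below every wild-type heart. Knockouts differed from ZT0 by -0.59 ± 0.15 (adjusted p = 0.0443) and from wild types at ZT12 by -0.57 ± 0.15 (adjusted p = 0.0793), and the wild types differed by -0.02. The ZT0 call was lost in 7 of 13 settings (0.0520 to 0.411), among them the atrial list mean (log2 difference -0.43), and without WT ZT0 replicates 1, 3, 4, 5 or 6, WT ZT12 replicates 1 or 7, or KO ZT12 replicates 3, 4 or 5 (0.0504 to 0.143). Between genotypes at ZT12 the difference passed in 3 of 13 settings and without WT ZT12 replicate 3 (0.0445). Its neighbour Mmp12, a macrophage elastase gene not above background, differed by -0.21 between genotypes at ZT12.

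**Figure D3:**
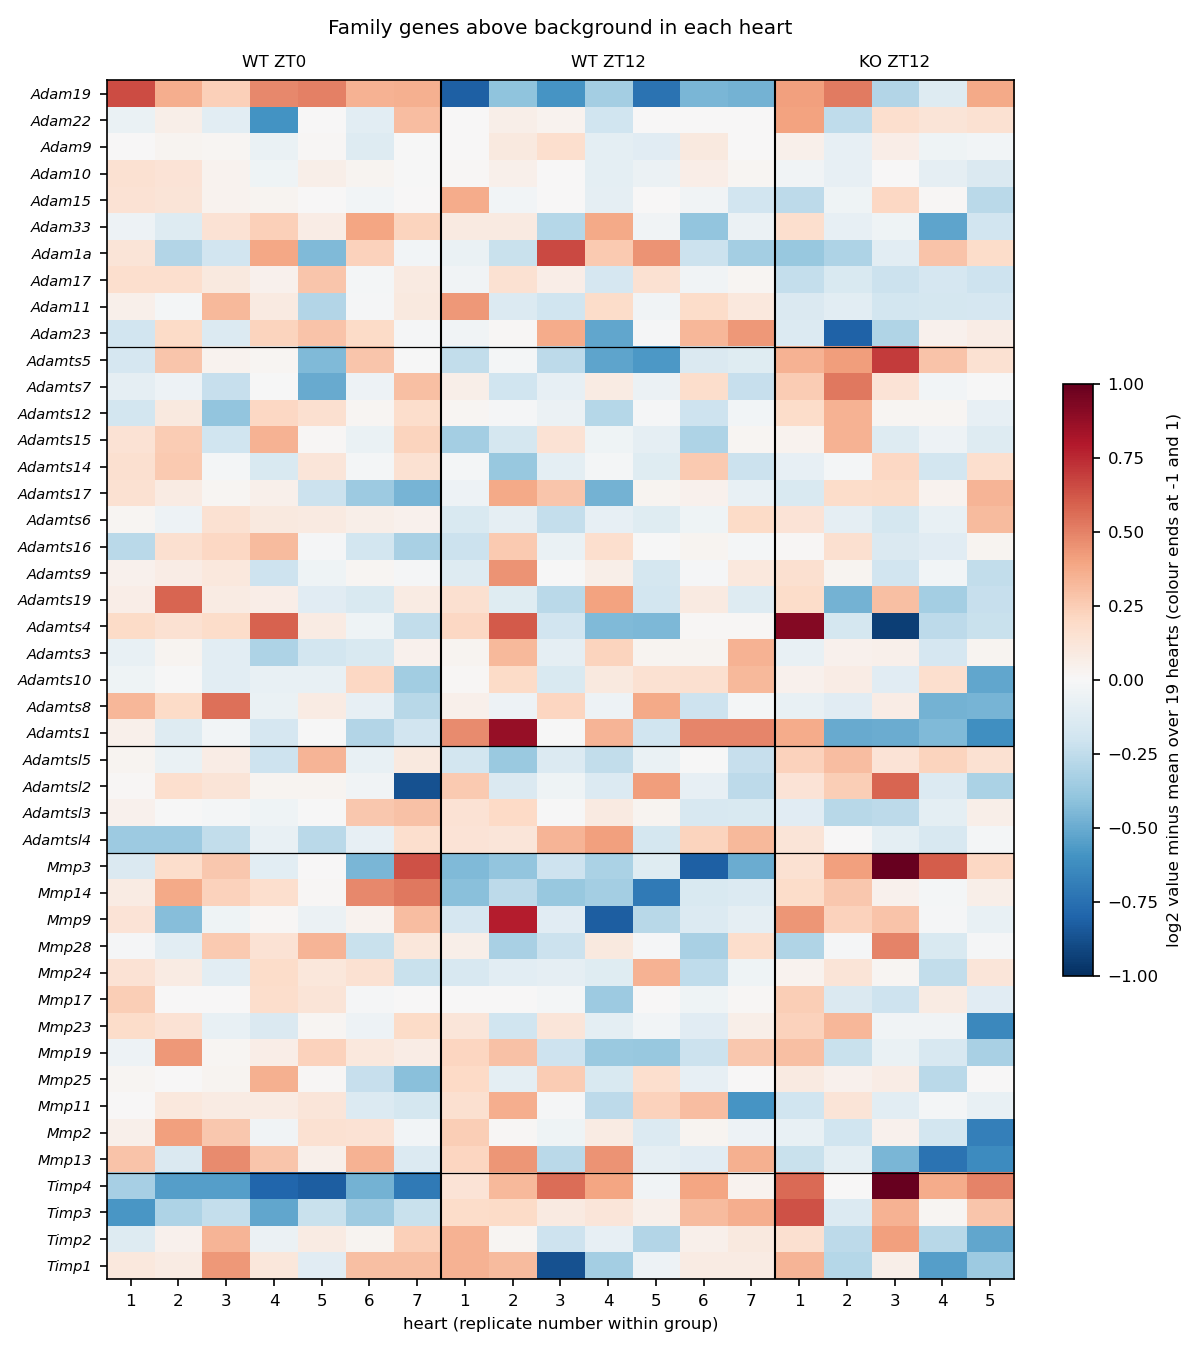
Log2 value of the 45 genes above background in each heart, minus that gene's mean over the 19 hearts (colour, ends at -1 and 1), with genes as the vertical axis grouped by family and hearts by group and replicate along the horizontal axis. Adam19, Mmp14 and Timp3 lie on one side of their mean within each wild-type group but on both sides in knockouts. Timp4 lies on one side at ZT0 and in knockouts. Mmp3, Adamts5 and Adamtsl5 do so in wild types at ZT12 and in knockouts, and Adam17 and Mmp13 in knockouts. Most other genes vary among hearts of a group.

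Several well known members passed in no comparison. Adam10, the main protease that cuts Notch receptors, lay within 7.43 to 7.72 in all 19 hearts. Its difference was -0.05 between the wild types (95% interval -0.16 to 0.06) and -0.07 between genotypes at ZT12 (95% interval -0.19 to 0.05). The Adam10 mean was 7.50 in knockouts against 7.62 at ZT0 (adjusted p = 0.395). Unadjusted p was under 0.05 in that comparison, as for 12.6% of all genes. Mmp2, gelatinase A, lay at 7.76 to 8.22 at ZT0, 7.67 to 8.05 in wild types at ZT12 and 7.12 to 7.85 in knockouts, with differences of -0.12, -0.24 and -0.36 (adjusted p = 0.700, 0.420 and 0.113) in the order of wild types, genotypes at ZT12 and knockouts minus ZT0. Mmp9, gelatinase B, which neutrophils carry in granules, was near background and spread widely at ZT12, from 2.75 to 4.36 in wild types. Its differences were -0.11, 0.29 and 0.18. Of the 8 neutrophil markers, a list that also holds Mmp8, 2 were above background. Adamts8 differed by -0.25 and Mmp17 by 0.03 between genotypes at ZT12. Another probe set of Adamts8 gave 0.14 there, the opposite sign. Both Adamts8 probe sets were near the background level of 3.20, with means of 3.26 and, for the other, 3.13. Adamts3, a procollagen propeptidase gene, differed by 0.23 between the wild types (adjusted p = 0.188). Adam3, Adam5 and Adam26a, sperm genes with means under 3 in every group, were not above background, and differences of up to 0.33 among them did not pass.

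The adjusted p of each called difference under other settings is plotted for the 13 calls. Adam19, Mmp14, Timp3 and Timp4 kept their calls between the times of day in every setting tried. Between genotypes at ZT12, Adam19, Mmp3 and Adamts5 kept theirs in 12 of 13 settings and in all 19 leave-one-out fits, the exception being the setting without 4 hearts.

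**Figure D4:**
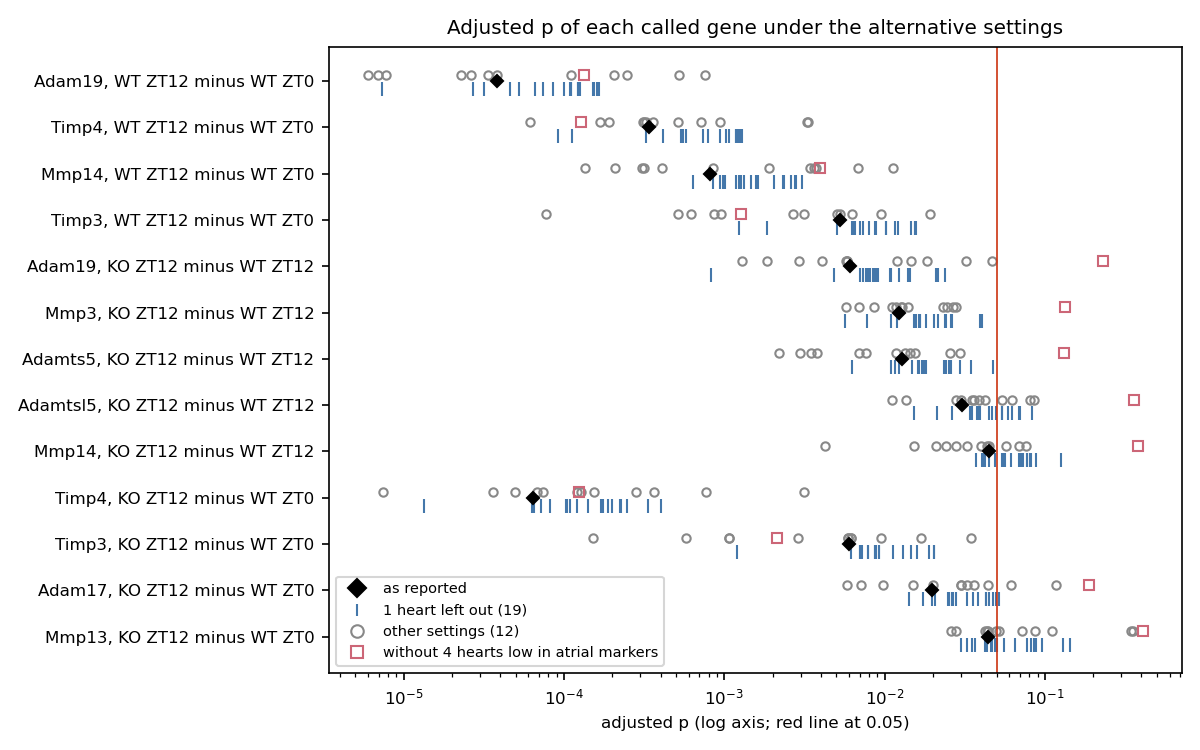
Adjusted p (horizontal axis, log scale) of the 13 called differences (vertical axis), as reported (diamonds), in the 19 fits that each left out 1 heart (ticks), in 12 other settings (circles) and without the 4 hearts low in atrial markers (squares), with a red line at 0.05. The 4 calls between the times of day stay left of the line, and all 5 genotype calls at ZT12 pass to the right of it without the 4 hearts.

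Genes that act on or with these families were taken from lists of general knowledge. Of 9 measured genes of the plasminogen system, which activates several MMPs, 0 passed between the wild types, 1 fell in knockouts against wild types at ZT12 (0.289% of all genes were called lower) and 3 fell against ZT0 (0.379% of all genes). Plau, urokinase, lay at 4.33 to 4.96 in knockouts against 4.96 to 5.54 in wild types at ZT12 and 4.98 to 5.19 at ZT0, with differences of -0.54 (adjusted p = 0.0131) and -0.44 (adjusted p = 0.0330). Plat, tissue plasminogen activator, fell by 0.42 against ZT0 (adjusted p = 0.00691), and Anxa2, a cell surface partner of that activator, by 0.52 (adjusted p = 0.0346). Between genotypes at ZT12 Plat and Anxa2 gave -0.29 and -0.42 and did not pass. Macrophage markers were also lower in knockouts, as given above, and their part in these differences and in those of Mmp13 was not tested. Of 13 inducers and other inhibitors of MMPs, Thbs2 was the 1 gene called (beside 0.645% of all genes called higher between the wild types and 0.965% for knockouts minus ZT0), higher in wild types at ZT12 than ZT0 by 0.48 (adjusted p = 0.00382) and in knockouts than ZT0 by 0.83 (adjusted p = 1.62e-05). Thbs2 encodes thrombospondin 2, known for clearing MMP2 through LRP1. It lay at 5.94 to 6.59, 6.50 to 6.77 and 6.85 to 7.08 in the 3 groups in that order, and the step of 0.35 between genotypes at ZT12 did not pass (adjusted p = 0.0963).

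Of 10 regulators of ADAM maturation and 23 measured substrates of ADAM shedding, none passed in any comparison. The lowest adjusted p among the regulators was 0.0832, for Pdia6 between the wild types, and among the substrates 0.0508, for the tumour necrosis factor receptor gene Tnfrsf1b between genotypes at ZT12 (log2 difference -0.40). Egfr differed by -0.32 between the wild types and by 0.43 between genotypes at ZT12 (adjusted p = 0.148 and 0.0784). Nrg1, a substrate of ADAM19, differed by -0.47 and 0.44 (adjusted p = 0.197 and 0.344). The 8 astacin and pappalysin genes, relatives in the wider protease clan, gave 0 calls. Among matrix substrates, Eln fell by 0.66 between the wild types (adjusted p = 0.0481, close to the threshold). Fbn2 was 0.43 higher in knockouts than in wild types at ZT12 (adjusted p = 0.0179). Fbn2 lay near the background level of 3.20, with means of 3.22 at ZT0, 3.12 in wild types at ZT12 and 3.55 in knockouts. Each of these genes was the only call among 17 measured proteoglycan and microfibril genes in its comparison. Of all genes, 0.482% were called lower between the wild types and 0.442% higher between genotypes. Col4a1, a basement membrane collagen gene, fell by 0.47 between the wild types (adjusted p = 0.00686) and was the only call among 16 collagen and cross-linking genes. For none of these lists were more than 3 genes called in a comparison.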

How the data were processed

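Transcript levels were measured on 19 arrays, 1 per heart, from 300 ng of total RNA each, per the labels' protocols. The deposited log2 values come from RMA, which the authors ran per the submitters' processing notes. The log2 scale was inferred from the range of 0.21 to 12.88. RMA subtracts background, equalises the distributions of the arrays and combines the probes of a set, which can shrink differences of dim genes. The version of RMA is not given in the sources used here. Replicates are called biological in the labels, which name no batch or date, and correlations between arrays were 0.972 to 0.985.

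Probe sets were named from the platform annotation, which can be old. Of 41345 probe sets, 23521 listed 1 gene and were used, and 1814 with several genes and 16010 with none were left out. All 82 symbols were found in the reference gene table of GRCm38.p6. Of the genes in the subfamily lists, Adam34, Adam36, Adam37, Adam38, Adamts2 and Mmp15 were not analysed here, and Adam34l belonged to no subfamily list.

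Groups were compared in a single limma 3.58.1 model (R 4.3.3) with 1 mean per group over the 19 arrays, eBayes without trend, two-sided tests and Benjamini-Hochberg adjustment over 22180 genes, with calls at 0.05. The number of arrays limits the precision. Log2 differences carry the SE of limma and 95% intervals, and group values the SD. The members and lists were chosen with earlier results of these data known. Members named are those called, the 3 of each protease family and of the ADAMTS-like family with the smallest p between the wild types and between genotypes at ZT12, all TIMP genes, Adam10, Adam17, Mmp2, Mmp9, Mmp14, Adam19 and Adamtsl5. Of other lists, up to 3 called genes per comparison or the 2 with the smallest p could be named. Syn2, Syn3, Mmp1a, Mmp1b, Mmp12, Adamts4 and Adamtsl2 were chosen after their values were seen.

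Alternatives were quantile normalization again, centring on array medians, leaving out genes not above background, the mean of a gene's probe sets, eBayes with trend, only the arrays compared, the replicate number as a block, the mean of the atrial, smooth muscle or fibroblast list as a covariate, and leaving out each heart. Added after seeing the data were Bmp10 or the mean of 10 immediate early genes as a covariate, and leaving out the 4 hearts with an atrial list mean below 6.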

Additional observations from a re-analysis of the deposited data

Results flagged for a closer look

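In 69 groups of hearts (23 named genes in 3 groups), the highest and lowest values were set against the gap to the nearest heart by Dixon's test, which flags about 1 in 20 groups by chance, and 2 stood out. For Adamts1, KO ZT12 replicate 1 lay at 7.64, with the next knockout heart at 6.84 and the lowest at 6.66. Without this heart the difference between genotypes at ZT12 was -0.86 (adjusted p = 0.00573), against -0.69 (adjusted p = 0.0508) with it. For Mmp17, a membrane-type MMP gene, WT ZT12 replicate 4 lay at 3.60, with the next heart at 3.91 and the highest at 3.97, and no Mmp17 call turned on it.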

How the results depend on the processing

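Of 2905 refitted differences of named genes, 2694 kept their direction and their side of the threshold, 125 lost and 48 gained a call, and 38 turned sign, all of them differences that passed in neither fit. All 19 leave-one-out fits gave 4 to 5 family genes and 185 to 269 of all genes between the wild types, 3 to 6 and 94 to 161 between genotypes at ZT12, and 3 to 4 and 171 to 311 for knockouts minus ZT0. Other counts that moved by over 1.5 times were as follows; the cause was not tested. Between the wild types, 157 of all genes, against 250, were called with the smooth muscle covariate. Between genotypes at ZT12, against 162, 256 were called with dim genes left out (fewer genes tested), 267 with trend, 72 with only the arrays compared and, without the 4 hearts low in atrial markers (fewer samples), 19 of all genes and 0 family genes. For knockouts minus ZT0, against 298, 455 were called with dim genes left out, 187 with only the arrays compared, 166 and 2 family genes with the atrial covariate, 134 and 2 with Bmp10, and 84 and 2 without the 4 hearts. With the replicate block, family genes called were 4, 4 and 4, and of all genes 171, 88 and 182. The numbers did not pair the hearts, since same-numbered hearts of 2 groups deviated with correlations of -0.07 to 0.07, so the block is no paired analysis. In the genotype comparison at ZT12 it ended the call of Adamtsl5 (adjusted p = 0.0859), and against ZT0 that of Mmp13 (0.111).

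Signs turned as follows. Between the wild types with the atrial covariate, Mmp13 became 0.0523 and Timp2 0.0831. With smooth muscle, Mmp13 became 0.0778, Mmp2 0.0517, Mmp9 0.00371, Timp1 0.0168 and Timp2 0.173. With fibroblast, Mmp13 became 0.0552 and Timp2 0.0399. With Bmp10, Mmp13 became 0.0616, Mmp9 0.0347 and Timp2 0.0522, and without the 4 hearts Mmp13 became 0.0145. Leaving out 1 heart gave -0.0755 to 0.0444 for Mmp13 and -0.264 to 0.00475 for Mmp9. Between genotypes at ZT12 the atrial covariate gave Timp1 0.0959 and Timp2 0.104, smooth muscle Timp3 -0.0609, Bmp10 Timp1 0.0346 and Timp2 0.00224, and leaving out the 4 hearts Adamts8 0.0106, Timp1 0.263 and Timp2 0.248. Leaving out 1 heart gave -0.0618 (without KO ZT12 replicate 1) to 0.133 for Timp3 and -0.213 to 0.0185 (without KO ZT12 replicate 5) for Timp2. For knockouts minus ZT0, Adamts1, Timp1 and Timp2 became 0.166, 0.0305 and 0.187 with the atrial covariate, 0.0599, 0.00419 and 0.0545 with Bmp10, and 0.0480, 0.0234 and 0.210 without the 4 hearts. Genes not above background have little signal, so differences among them are poorly measured.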

Other observations

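The widest spread of any family gene above background within a group was that of Adamts4, a proteoglycan-cleaving protease gene, in knockouts, with an SD of 0.67. Its knockout values were 4.31, 3.21, 2.44, 3.12 and 3.16, against 3.14 to 3.97 in wild types at ZT0 and 2.93 to 4.002 at ZT12. In wild types at ZT12 Mmp9 varied most, with an SD of 0.47, and at ZT0 Adamtsl2, with an SD of 0.36.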
